A study of Arabidopsis thaliana with 12 samples.

Results

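Some Arabidopsis genes give abundant transcript in one accession and almost none in another. Here 98 genes of the 32992 whose identifiers occur once in the deposited files were described, all of them on in the accession Col and off in the accession C24. A gene belonged to the set when the mean of its 3 Col libraries was at least 2 RPKM and the mean of its 3 C24 libraries was below 0.1 RPKM. RPKM is a read count divided by the length of the gene and by the number of mapped reads of the library. The thresholds were met by 103 genes, and the rule left out 6 named genes, 5 of which had met them. The levels in Col and C24 therefore chose the genes and are given as a description, while the hybrid libraries had no part in the choice.

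Shoots of Arabidopsis thaliana seedlings were harvested at 14 days from 4 groups with 3 replicates each. These were the wild-type accessions Col and C24 and their wild-type reciprocal hybrids, named Col/C24 and C24/Col in the labels, without a statement of which parent was the mother. The day length was short, with 8 h of light (22 °C) followed by 16 h of dark (18 °C), and polyadenylated RNA was sequenced in 12 libraries. Nothing in the labels says whether replicates were separate plants or pools, so each p-value reflects only how these samples varied. A difference in RNA per cell and a difference in the number of cells that make it cannot be told apart in whole shoots.

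A hybrid carries one genome copy from each parent. For a gene that only the Col copy transcribes, with no further change, the hybrid is expected at 50% of the Col level, which is also the mid-parent (the mean of both parents). Departures upward or downward from that level are what the term non-additive expression means. Accessions differ by deletions, rearranged copies, transposon insertions and silenced alleles, and such differences are known to leave one accession without the transcript of a gene. Reads of all groups were aligned to TAIR10, which is a Col genome. A C24 value near 0 therefore cannot separate a gene without transcript from a gene whose C24 transcript differs too much to align, and the same holds for the C24 allele in the hybrids.

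The labels were checked first. The leaf genes RBCS1A (10260 to 14207 RPKM), RCA (3111 to 3918) and LHCB2.1 (2611 to 3924) were high in all 12 libraries. LHCB1.3, another leaf gene, was listed at 0 in every library, so an exact 0 in these files can also be a failed estimate. Flower markers did not exceed 3.54 RPKM (SEP3), and of the root markers PYK10 alone was above 1 RPKM (70.1 to 112.8). The seed storage gene CRA1 stood at 27.6, 12.2 and 50.4 RPKM in Col/C24 replicate 1 and C24/Col replicates 1 and 3, and at most at 0.48 in the other libraries. Its part in the values below was not tested. As estimated from the spacing of low values, 3 reads of a 1500 bp gene are worth between 0.0752 and 0.129 RPKM, depending on the library. The C24 limit of 0.1 RPKM thus lies near that floor, which covers counting error only.

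Col means of the set ran from 2.02 to 103.4 RPKM with a median of 6.47. In C24, 43 of the 98 genes were listed at 0 in all 3 libraries, and 12 were above 0 in all 3. Of the 294 C24 values 200 were 0, and the highest was 0.22 RPKM, for AT1G23960 in replicate 3. The fit over all genes called 96 of 97 tested members lower in C24 than in Col, against 12.4% of all genes, which the choice of genes fixed. In the Col libraries AT1G23960, of unknown function, had 43.8, 39.95 and 48.4 RPKM.

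In both hybrids most of the 98 genes lay near 50% of the Col level. Col/C24 had a median share of 46.8% (quartiles 43.0% and 52.0%). C24/Col had a median share of 49.4% (quartiles 44.9% and 53.7%). Over the 3 libraries of each hybrid the SD of this median was 2.52 and 2.91 percentage points. Shares between 40% and 60% were held by 71 genes in Col/C24, by 78 in C24/Col and by 67 in both. Fewer genes lay outside that band in both hybrids, with 7 below 40% and 9 above 60%. All 6 hybrid libraries lay below all 3 Col libraries for 85 of the 98 genes, an order that 12.5% of all 17927 tested genes showed. All 6 lay above all 3 C24 libraries for 97 genes, against 5.28% of the tested genes. Since the choice of genes sets Col high and C24 near 0, nothing is read from these 2 counts.

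**Figure D1:**
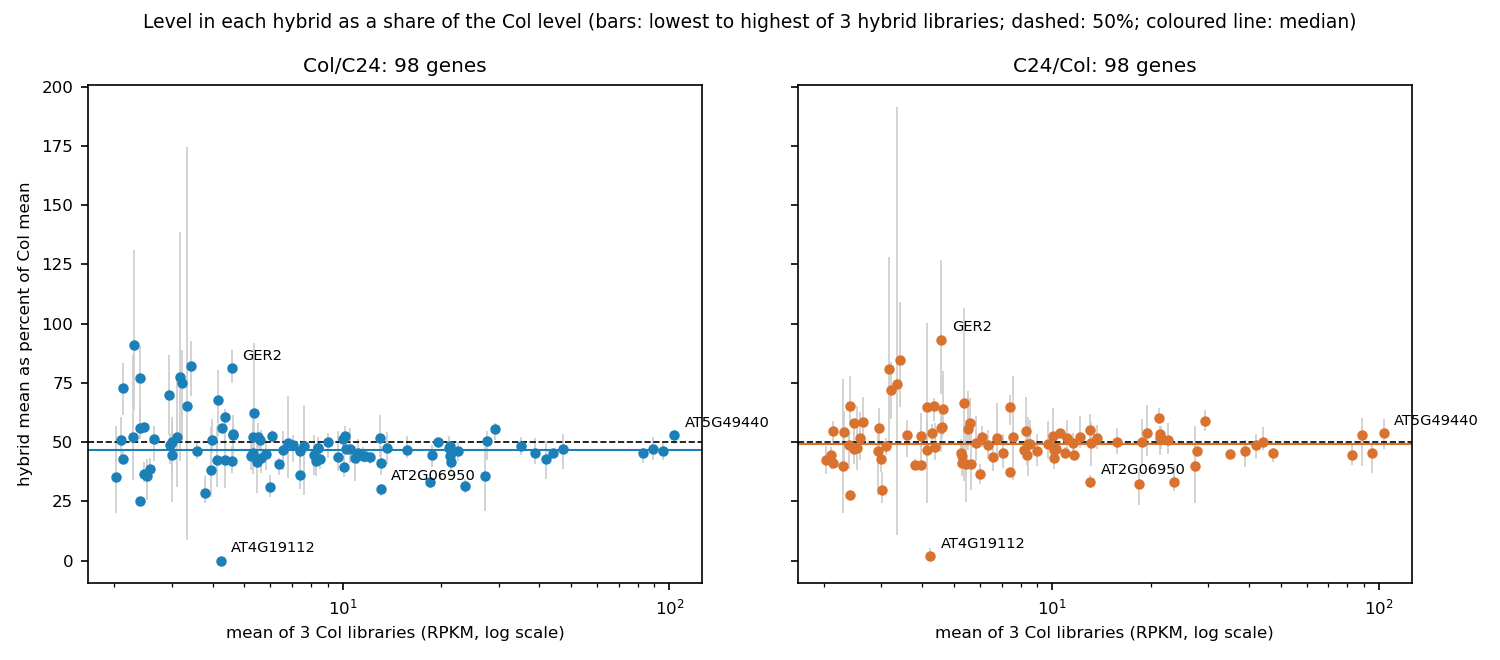
Mean of each hybrid as a percentage of the Col mean (y axis) against the Col mean in RPKM (x axis, log scale), 1 point per gene, for Col/C24 (left) and C24/Col (right). Grey bars run from the lowest to the highest of the 3 hybrid libraries, the dashed line marks 50%, and the coloured line marks the median of 46.8% (left) or 49.4% (right). Points scatter most widely at Col levels below 5 RPKM, with GER2 high and AT4G19112 at the bottom in both hybrids.

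The spread around the median was widest at the lowest Col levels. For the 37 genes with a Col mean of 2 to 5 RPKM the interquartile range was 22.6 percentage points for Col/C24 and 13.8 for C24/Col. For the 43 genes at 5 to 20 RPKM it was 6.09 and 7.49, and for the 18 genes above 20 RPKM it was 3.56 and 7.54. From 5 RPKM upward it thus narrowed further in Col/C24 but not in C24/Col. Fewer reads stand behind the shares of the weakest genes.

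Set against the mid-parent, the median of the set was 93.6% of the mid-parent in Col/C24 and 98.6% in C24/Col. Over the 15045 genes with mid-parent levels in the same range the medians were 93.6% and 100.1%. The 54 genes with the opposite pattern (C24 mean at least 2 RPKM, Col mean below 0.1) stood at a median of 44.3% of the C24 level in Col/C24 and 47.8% in C24/Col. In both sets the parental values that chose the genes also form the mid-parent.

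The direction of the cross is the comparison that the choice of genes did not touch. The share was larger in C24/Col for 68 genes and larger in Col/C24 for 30, by a median of 2.93 percentage points. No gene of the 97 tested passed in limma (smallest adjusted p = 0.935), as no gene among all 17927 tested did (0%). At an unadjusted p under 0.05 there were 7 of the 97, against 4.16% of all genes. The lean towards C24/Col was shared by all tested genes, with a median log2 difference of 0.08 over all genes and 0.07 over the set. With libraries brought to a common scale by median-of-ratios factors the medians were 0.0042 and -0.0028, and 48 of 97 members lay above 0, against 67 before. With the replicate number as a block 11 members had an unadjusted p under 0.05, against 13.3% of all genes, and 0 passed after adjustment (0%). The 3 libraries of C24/Col lay above those of Col/C24 for 6 genes and below them for 2, against 9.69% and 0.703% of all tested genes.

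The widest reciprocal gap by p belonged to AT5G28920, a protein-coding gene of unknown function on chromosome 5 that overlaps AT5G28919 on the opposite strand. It had 7.49, 7.22 and 7.51 RPKM in Col and was listed at 0 in the 3 C24 libraries. Its values were 3.04, 3.56 and 3.66 in Col/C24 and 4.24, 5.02 and 5.19 in C24/Col. The hybrids did not overlap each other or Col, and they stood at 46.2% and 65.0% of the Col level. The log2 difference was 0.40 (95% interval 0.20 to 0.59, limma adjusted p = 0.935). Its partner AT5G28919 differed less, at 45.2% and 51.9%.

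Of the members, 9 carry a gene symbol, and they are described by role. Regulators come first. MYB23 (AT5G40330) encodes a MYB transcription factor that promotes the formation and branching of trichomes, the leaf hairs. It had 3.53, 4.46 and 3.88 RPKM in Col and 0.06, 0.05 and 0.09 in C24. Both hybrids lay between the parents without overlap, at 2.23, 1.06 and 1.23 in Col/C24 and 1.56, 1.65 and 1.57 in C24/Col. Its shares of the Col level were 38.1% ± 20.8 and 40.3% ± 3.60 (n = 3). Here and below a share is the ratio of the group means, and the value after ± is the SD of the 3 ratios of libraries of the same number. OFP12 (AT1G05420), of the ovate family of transcriptional repressors, was the weakest member, with 2.93, 1.51 and 1.63 RPKM in Col and 0.08, 0.13 and 0.07 in C24. It stood at 1.15, 0.41 and 0.59 in Col/C24 and at 0.87, 0.98 and 0.74 in C24/Col, below every Col value.

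Receptor-type genes followed. WAKL2 (AT1G16130) belongs to the wall-associated kinase-like receptors of the cell surface. Its Col values were 7.33, 1.8 and 0.92 RPKM, and it was listed at 0 in the 3 C24 libraries. In Col/C24 it had 5.85, 0.4 and 0.29, and in C24/Col 6.41, 0.71 and 0.37. Replicate 1 was far above the others in each of the 3 groups, so its group means say little. AT5G36930, annotated as a disease resistance protein of the TIR-NBS-LRR class (a family of intracellular immune receptors), was steadier. It had 4.9, 3.98 and 4.17 RPKM in Col, 0, 0 and 0.04 in C24, 2.78, 2.64 and 2.51 in Col/C24 and 2.98, 2.57 and 2.98 in C24/Col. Its shares of 60.8% ± 4.86 and 65.4% ± 5.40 were among the 6 highest at Col means of at least 4 RPKM.

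The enzymes and the transporter gave the following values. MIOX1 (AT1G14520), a myo-inositol oxygenase that turns inositol into a sugar acid for cell wall precursors, had 8.43, 3.16 and 4.51 RPKM in Col and 0.19, 0.03 and 0.06 in C24. In Col/C24 it stood at 4.94, 2.29 and 2.83, and in C24/Col at 5.72, 1.81 and 3.15. The hybrid and Col ranges overlapped, and replicate 1 was highest in every group. The shares were 62.5% ± 7.12 and 66.3% ± 6.75. MIOX1 and WAKL2 are 2 of 8 members that were highest in replicate 1 in Col and in both hybrids. The share of all genes with that order was not counted, and libraries of the same number deviated together. Nothing about the set is therefore read from this count. GLC (AT1G65450), annotated as a BAHD-type acyltransferase that acts in double fertilization, had 2.94, 2.46 and 2.16 RPKM in Col and at most 0.03 in C24, with 35.7% and 47.4% of the Col level in the hybrids. ZIP7 (AT2G04032), a metal transporter of the plasma membrane family ZIP, had 1.75, 2.6 and 1.95 in Col and 0.04, 0 and 0 in C24. It stood at 1.27, 1.01 and 0.93 in Col/C24 and at 1.01, 0.81 and 0.99 in C24/Col, all below Col. DRP4D (AT1G60510), a transcribed pseudogene related to dynamin genes, had 4.76, 4.08 and 4.99 RPKM in Col, 0 in each C24 library and 53.6% and 56.6% of the Col level in the hybrids.

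**Figure D2:**
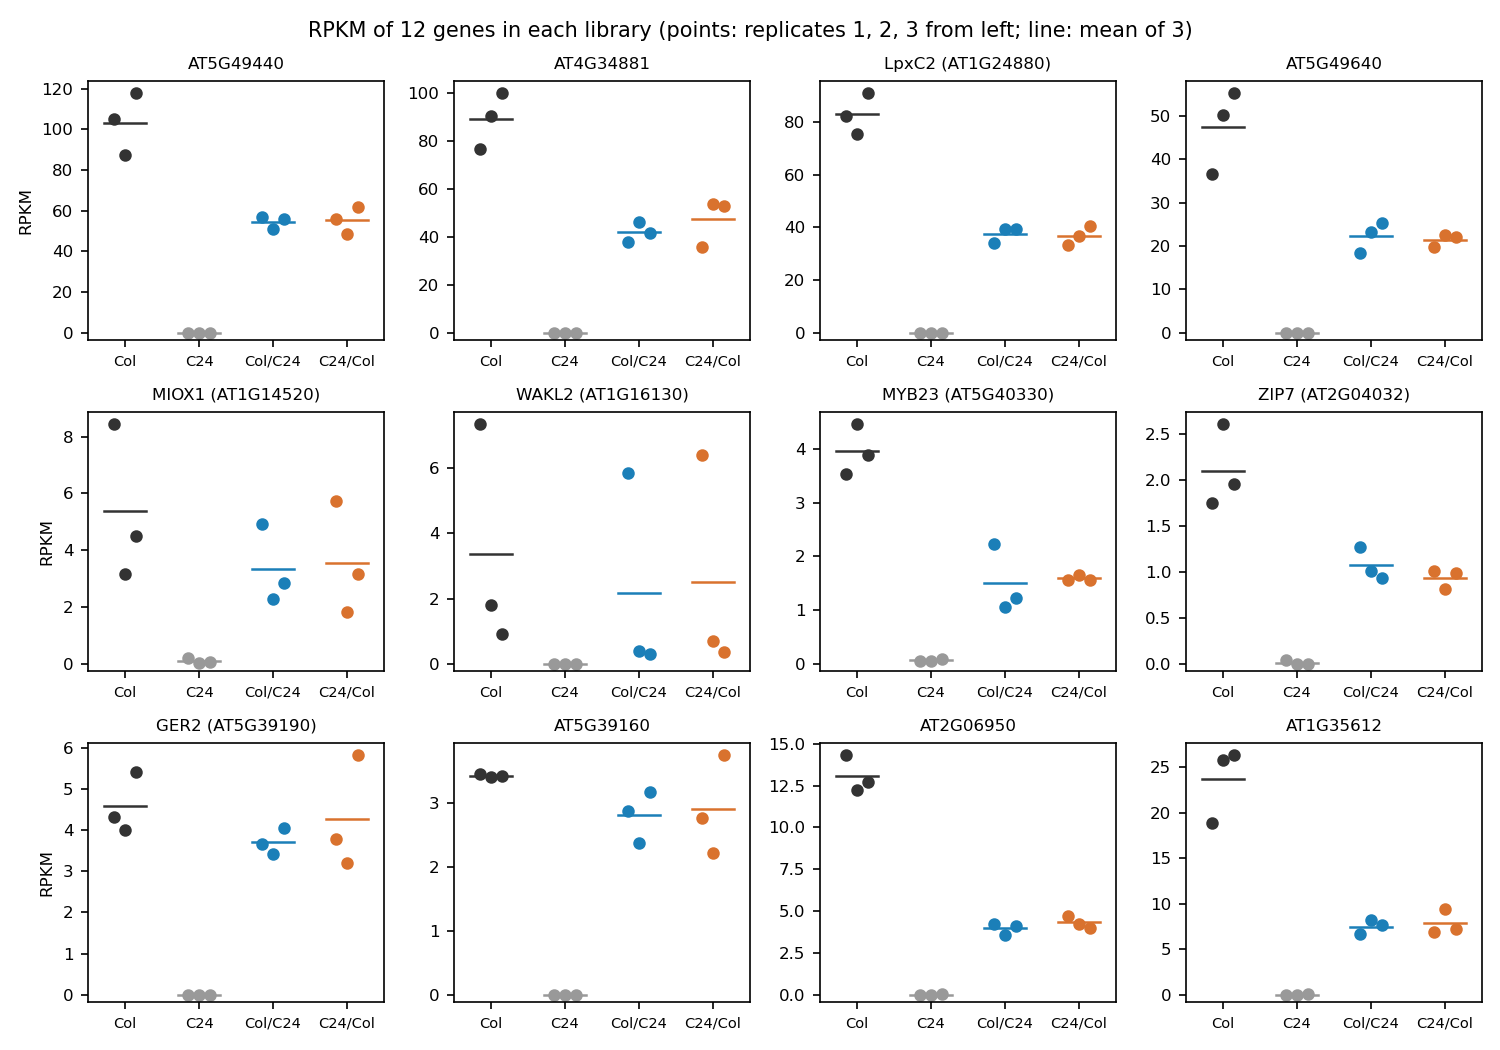
RPKM (y axis, linear, separate scale per panel) of 12 members in each library of the parents (Col, then C24) and the hybrids (Col/C24, then C24/Col) along the x axis, with replicates 1, 2 and 3 from left to right in each group and a line at the group mean. In the top row the hybrids lie between 44.4% and 53.7% of the Col mean. WAKL2 and MIOX1 are highest in replicate 1 wherever they are detected, GER2 reaches into the Col range in both hybrids and AT5G39160 in C24/Col, and AT2G06950 and AT1G35612 stay at 30.4% to 33.3% of Col.

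GER2 (AT5G39190) encodes a germin-like protein, a secreted cupin-fold protein of the cell wall, and AT5G39160 is annotated in the cupin superfamily. Over both hybrids these genes had the highest shares of the Col level in the set. Both are on the minus strand of chromosome 5 in TAIR10.1, GER2 at chr5:15692542-15693735 and AT5G39160 at chr5:15679005-15680141. Over 1137 aligned bases they are 99.7% identical, so their reads can hardly be told apart. The stretch of coding sequence below (chr5:15693244-15693303 for GER2, chr5:15679668-15679727 for AT5G39160, RefSeq TAIR10.1) shows how close they are, with the single differing base in capitals.
GER2: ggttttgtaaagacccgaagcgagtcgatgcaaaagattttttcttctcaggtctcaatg
AT5G39160: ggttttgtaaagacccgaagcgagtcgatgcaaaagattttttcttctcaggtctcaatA
GER2 had 4.32, 3.99 and 5.42 RPKM in Col, was listed at 0 in the 3 C24 libraries, and stood at 3.65, 3.43 and 4.06 in Col/C24 and 3.79, 3.21 and 5.81 in C24/Col. The ranges overlapped Col in both hybrids, at 81.1% ± 6.004 and 93.3% ± 13.8 of Col. AT5G39160 had 3.45, 3.41 and 3.42 RPKM in Col, 0 in each C24 library, 2.88, 2.38 and 3.17 in Col/C24 and 2.76, 2.22 and 3.74 in C24/Col, or 82.0% and 84.8% of Col, with overlap in C24/Col alone. As a pair of near-identical copies they count as 1 observation.

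Each hybrid was tested against the mid-parent over all genes, with the caution that the Col values that chose the members also form the mid-parent. In limma 0 of the 97 tested members passed an adjusted p of 0.05 in Col/C24, where 0.0335% of all genes passed, and 0 in C24/Col, where 0.0502% passed. At an unadjusted p under 0.05 there were 12 and 13 members, against 8.85% and 6.07% of all genes. AT2G06950 had the smallest adjusted p among members, 0.169 for Col/C24 and 0.259 for C24/Col.

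Libraries of the same replicate number deviated together, and with the number as a block the counts changed. The blocked fit called 8 members in Col/C24 against 2.9% of all genes. Of these, 2 were higher than the mid-parent (0.296% of all genes) and 6 lower (2.6%). In C24/Col it called 3 members, against 1.57% of all genes, with 1 higher (0.731%) and 2 lower (0.842%). The higher ones were GER2 and AT5G39160 in Col/C24 and GER2 in C24/Col. As near-identical copies, GER2 and AT5G39160 count as 1 observation, so the 2 higher calls in Col/C24 are not separate. For GER2 the log2 difference from the mid-parent was 0.52 in Col/C24 (95% interval 0.30 to 0.75, adjusted p = 0.0376 in the blocked limma fit) and 0.66 in C24/Col (0.43 to 0.88, adjusted p = 0.0252). With the block and a common scale for the libraries 3 members passed in Col/C24 (0.708% of all genes) and 4 in C24/Col (3.2%). With the block and 1 library or mid-parent profile left out, 3 members passed without Col/C24 replicate 2, where 460 of all 17927 genes did. Without Col/C24 replicate 3 it was 1 member (60 of all genes), and without C24/Col replicate 1 it was 2 (105 of all genes). Without any other hybrid library or mid-parent profile 0 members passed. There 13 to 56 of all genes passed, against 519 (Col/C24) and 282 (C24/Col) with all libraries in the blocked fit. What the loss of member calls owes to a single library was not tested.

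At the low end, AT2G06950 and AT1G35612 were called lower in both hybrids with the block. Both hybrids were set against the same mid-parent profiles, so their calls are not independent, here or for GER2. AT2G06950 is a pseudogene on chromosome 2 (chr2:2859226-2863434, minus strand) without a product in the annotation. It had 14.3, 12.26 and 12.71 RPKM in Col, 0, 0 and 0.03 in C24, 4.26, 3.58 and 4.09 in Col/C24 and 4.74, 4.25 and 3.99 in C24/Col. The hybrids formed a narrow cluster at 30.4% ± 1.58 and 33.1% ± 1.64 of Col, with log2 differences of -0.60 and -0.50 from the mid-parent (blocked limma adjusted p = 0.0102 and 0.017; without the block 0.169 and 0.259). AT1G35612, annotated as a pseudogene of an Ulp1 protease (a family that removes the SUMO protein tag), had 18.88, 25.81 and 26.29 RPKM in Col and 0, 0 and 0.09 in C24. Its hybrid values of 6.71, 8.17 and 7.64 in Col/C24 and 6.95, 9.47 and 7.24 in C24/Col all lay below the lowest Col library, at 31.7% and 33.3% of the Col mean. The log2 differences were -0.58 and -0.53 (blocked limma adjusted p = 0.02 and 0.0288; without the block 0.458 and 0.623).

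The other 4 lower calls held in Col/C24 with the block, at limma adjusted p between 0.0462 (AT3G06433) and 0.0497 (AT1G35320). Without the block their limma adjusted p lay between 0.313 (AT1G35320) and 0.54 (AT4G07825). AT3G06433, a transcribed pseudogene, stood at 31.0% of Col in Col/C24 and 36.6% in C24/Col, and AT1G35320, of unknown function, at 25.03% and 27.7%. AT5G16980, annotated as a zinc-binding dehydrogenase, stood at 28.6% and 40.2%. AT4G07825, of unknown function, had 19.79, 22.8 and 21.9 RPKM in Col and 8.09, 9.96 and 8.7 in Col/C24, against 10.17, 12.18 and 11 in C24/Col, which is 41.5% and 51.7% of Col. On a common scale with the block none of these 4 passed in Col/C24.

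The rule for low shares named 2 further genes, which passed in neither hybrid with all replicates in the fit. AT2G27402, annotated as similar to a plastid transcription protein, had 15.7, 21.47 and 18.26 RPKM in Col and was listed at 0 in the 3 C24 libraries. It stood at 6.05, 6.74 and 5.64 in Col/C24 and at 6.71, 6.89 and 4.31 in C24/Col, all below Col, or 33.2% ± 4.28 and 32.3% ± 9.59 of its level. It was called lower in C24/Col in the blocked limma fit without C24/Col replicate 1 (adjusted p = 0.047). AT3G46385, a transcribed pseudogene of a leucine-rich repeat receptor kinase on chromosome 3, stood at 36.1% ± 7.93 and 37.4% ± 1.70. The protein-coding gene AT3G46370 of the same kinase family, which lies on the same chromosome and was named after its values were seen, had 10.26, 11.93 and 9.44 RPKM in Col and 47.2% and 53.7% in the hybrids.

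**Figure D3:**
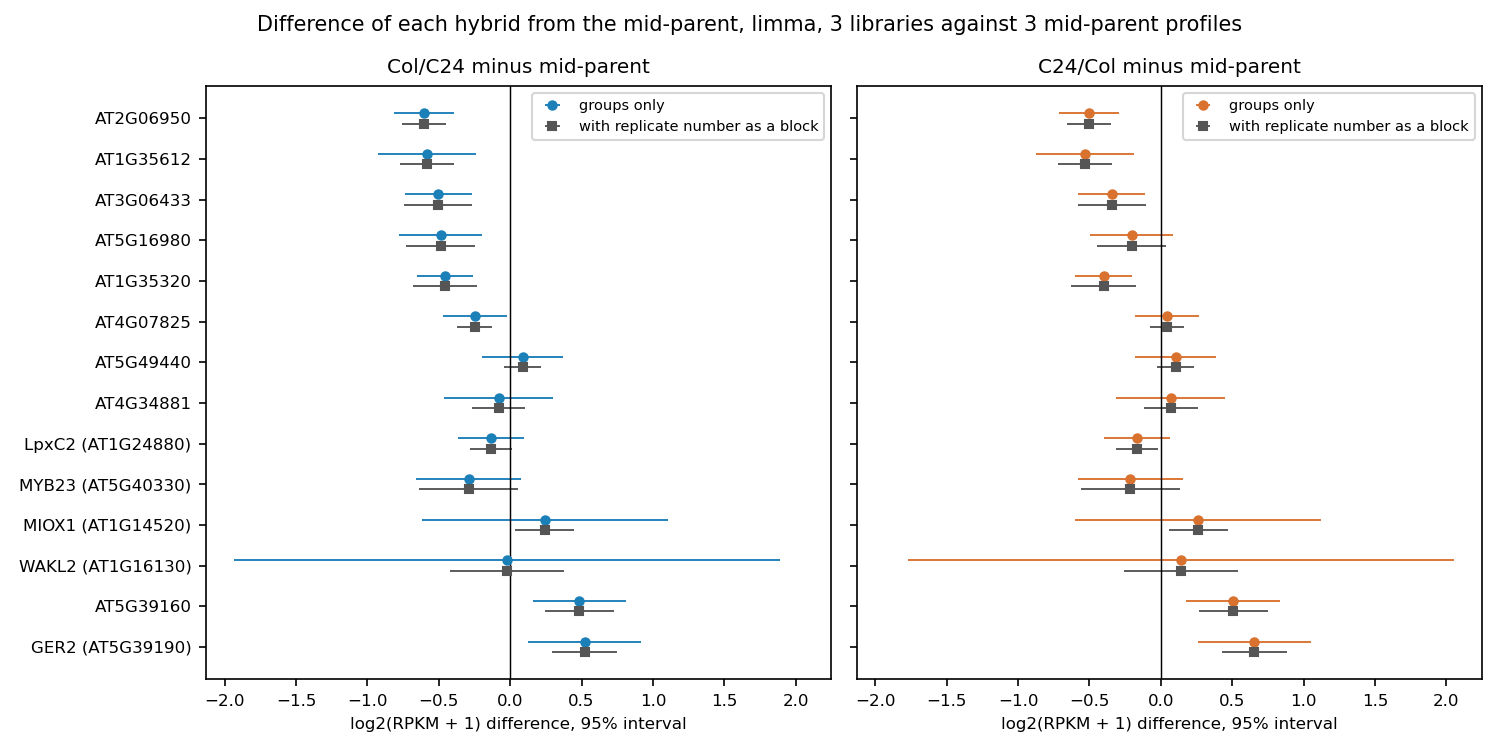
Difference in log2(RPKM + 1) between each hybrid and the mid-parent (x axis, with 95% intervals from limma) for 14 members (y axis), for Col/C24 (left) and C24/Col (right). Coloured circles are the fit by group and grey squares the fit with the replicate number as a block. AT2G06950 (-0.60 and -0.50) and AT1G35612 lie below 0 and the germin genes above it in both hybrids, while the block narrows the interval of WAKL2 and MIOX1 most.

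Some other members far from 50% rest on few values. AT4G19112, an identifier without a match in TAIR10.1, had 0.54, 0.04 and 12.12 RPKM in Col, so its membership rests on Col replicate 3. It was listed at 0 in the C24 and Col/C24 libraries and at 0.23, 0 and 0 in C24/Col, and it did not pass the filter for testing. AT3G18320, an F-box protein, had 4.49, 3.55 and 4.39 RPKM in Col, 0.12, 0.1 and 0.05 in C24, 3.33, 2.18 and 2.91 in Col/C24 and 1.8, 2.12 and 4.16 in C24/Col. The F-box genes AT3G44120 and AT2G07140, near-identical to it by sequence, ran the other way, with 2.35, 1.42 and 1.75 RPKM and 0.69, 0.41 and 0.52 in C24 against 0.98, 0.67 and 1.03 and 0.07, 0.11 and 0.07 in Col. AT1G19394, named after its values were seen, had the highest share in Col/C24 (91.1%) but 54.3% in C24/Col. It overlaps AT1G19396 over 893 bp on the same strand, whose level was 5.09 RPKM in Col and 0.363 in C24.

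Several of the strongest members encode proteins without a known function. AT5G49440 (chr5:20048239-20049776, plus strand) led the set with 105.1, 87.3 and 117.6 RPKM in Col and 0, 0.07 and 0.07 in C24. Its hybrid values were 56.9, 50.8 and 56.2 in Col/C24 and 55.9, 48.8 and 61.7 in C24/Col, or 52.9% ± 5.26 and 53.7% ± 1.82 of Col. Both hybrids lay apart from Col and C24 but overlapped each other, and the log2 difference between them was 0.02 (95% interval -0.24 to 0.27). AT4G34881 had 76.7, 90.1 and 99.7 RPKM in Col and 0.05 or 0.06 in each C24 library, and AT5G49640 had 36.7, 50.3 and 55.2 in Col and 0, 0 and 0.07 in C24. AT4G34881 stood at 47.2% and 53.2% of Col in the hybrids and AT5G49640 at 47.1% and 45.3%. Each has a near-identical copy, AT1G09765 for AT4G34881 and AT5G49645 for AT5G49640, so these values may not belong to a single locus. AT4G34881 also overlaps AT4G34890, which had 11.38, 13.89 and 14.79 RPKM in C24. AT5G42825 overlaps on the opposite strand, over 981 bp, with AT5G42820, a gene that C24 transcribes at 44.7, 52.6 and 61.1 RPKM. Its own values were 33.3, 44.5 and 48.4 RPKM in Col and 0 in all 3 C24 libraries. In C24 the 2 overlapping genes thus gave opposite results.

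Promoters of the protein-coding members were searched for the core TATA motif TATAAA on the gene's strand in the 100 bases before the annotated start. It was found in 2 of 58 members (3.45%) and in 17.9% of the 27443 protein-coding genes of TAIR10.1. Annotated starts of poorly known genes can lie at the coding start rather than at the transcript start, so the share describes these windows only. The 250 bases before the start of both holders, OFP12 (chr1:1589723-1589972, plus strand) and AT1G76960 (chr1:28920977-28921226, minus strand), are shown with the motif in capitals. The strongest member, AT5G49440 (chr5:20047989-20048238, plus strand), has no such run there and is shown for comparison.
OFP12: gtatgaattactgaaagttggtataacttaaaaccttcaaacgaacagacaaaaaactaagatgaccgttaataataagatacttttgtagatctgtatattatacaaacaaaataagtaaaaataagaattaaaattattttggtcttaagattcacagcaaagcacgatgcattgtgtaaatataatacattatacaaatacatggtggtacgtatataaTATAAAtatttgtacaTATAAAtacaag
AT1G76960: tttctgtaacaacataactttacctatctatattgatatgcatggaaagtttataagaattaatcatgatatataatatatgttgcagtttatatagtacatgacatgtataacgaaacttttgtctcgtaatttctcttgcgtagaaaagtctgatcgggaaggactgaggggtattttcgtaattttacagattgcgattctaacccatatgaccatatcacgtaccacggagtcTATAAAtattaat
AT5G49440: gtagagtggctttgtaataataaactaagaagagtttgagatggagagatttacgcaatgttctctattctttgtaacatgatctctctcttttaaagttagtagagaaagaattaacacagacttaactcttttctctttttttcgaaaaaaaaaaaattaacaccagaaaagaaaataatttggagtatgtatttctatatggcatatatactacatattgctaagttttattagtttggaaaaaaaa
AT1G76960, of unknown function, had 29.55, 27.72 and 24.58 RPKM in Col and was listed at 0 in the 3 C24 libraries. It had 10.34, 13.1 and 5.73 in Col/C24 and 10.59, 15.56 and 6.7 in C24/Col, the same order of replicate numbers in both hybrids. Its shares of 35.6% ± 11.97 and 40.1% ± 14.8 had the widest spread among the 12 strongest members.

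AT1G24880 carries the symbol LpxC2, after the deacetylase of lipid A synthesis, a pathway best known from the outer membrane of bacteria that plants also possess. It had 82.1, 75.5 and 90.7 RPKM in Col, 0, 0.03 and 0 in C24, 34.0, 39.3 and 39.5 in Col/C24 and 33.3, 36.7 and 40.4 in C24/Col. The gene model (chr1:8775901-8778072, plus strand) had 0 blastn hits in the LpxC1, LpxC3, LpxC4 and LpxC5 genes. Over 2170 aligned bases it is instead 100% identical to the noncoding RNA genes AT1G25098 and AT1G25175, as the stretch below shows (chr1:8777014-8777073 and chr1:8813920-8813979, both plus strand, RefSeq TAIR10.1).
AT1G24880: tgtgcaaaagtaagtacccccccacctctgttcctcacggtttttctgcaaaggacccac
AT1G25098: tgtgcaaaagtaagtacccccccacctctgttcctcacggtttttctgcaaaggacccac
The value listed for AT1G24880 can therefore not be read as a level of the enzyme. AT1G25098 stood at 326.9, 357.9 and 376.8 RPKM in Col and at 0.07, 0.31 and 0.62 in C24. AT1G25175 had 142.0, 127.8 and 149.3 in Col and 0, 0 and 0.33 in C24, and missed membership by a C24 mean of 0.11. AT1G24996, the second strongest member and contained whole in these copies, had 89.8, 95.6 and 100.5 RPKM in Col and 0, 0 and 0.1 in C24, with 46.3% and 45.3% of Col in the hybrids.

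Of the 27 genes in the files from the stretch of chromosome 1 that holds the LpxC copies, 5 had a Col mean of at least 2 RPKM. All 5 had a C24 mean below 1, which the rule fixed for the members AT1G24880 and AT1G24996. AT1G25098 and AT1G25175 are near-identical to these members, so LpxC3 alone is a separate observation. LpxC3 (AT1G25054), the copy with the highest level among the 4 other LpxC genes, had 13.6, 13.1 and 15.7 RPKM in Col, 0.15, 0.16 and 0.26 in C24, 5.13, 5.19 and 6.58 in Col/C24 and 5.95, 6.5 and 6.17 in C24/Col. In the same stretch AT1G24909, AT1G25083 and AT1G25155 ran the other way, listed at 0 in the 3 Col libraries and at 1.93, 2.05 and 2.68, at 2.16, 1.97 and 2.14 and at 1.88, 2.54 and 1.39 RPKM in C24. Of the other genes of the lipid A list, LpxB had 2.57, 2.43 and 2.85 RPKM in Col and 1.97, 2.75 and 2.3 in C24, and KDTA 3.01, 3.1 and 3.63 and 2.35, 3.79 and 3.62. LpxK had 1.32, 1.37 and 1.97 RPKM in Col and 2.47, 2.61 and 2.87 in C24.

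Copies and overlaps occur in the set, and their share over all genes was not counted. A near-identical copy (at least 95% identity over at least 80% of the gene) exists for 21 members, 28 overlap another gene (23 on the opposite strand only), and 54 have neither. How the counting treated strand and shared reads is not given in the sources used here, so values of these members are uncertain. In the 54 without copy or overlap Col/C24 stood at a median of 45.8% and C24/Col at 47.3%, within 1 SD over libraries of the medians of the whole set. Overlap or near-identity joins 23 members into 11 groups, which leaves 85 separate units.

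The largest group holds AT4G09200, AT4G09250 and AT4G09310, proteins with a SPRY domain, a protein-binding module. AT4G09200 and AT4G09310 do not differ over 2637 bases, nor AT4G09200 and AT4G09250 over 2401. The first coding bases, shown for AT4G09200 (chr4:5859380-5859439, plus strand), are the same letters in all 3.
AT4G09200: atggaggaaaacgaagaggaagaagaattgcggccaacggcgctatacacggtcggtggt
Their levels in Col were 5.54, 6.33 and 5.6 RPKM, 4.53, 4.34 and 4.25, and 5.21, 6.21 and 5.36. In C24 they did not exceed 0.06 RPKM. In Col/C24 they stood at 45.2%, 42.5% and 51.1% of the Col level and in C24/Col at 49.5%, 48.1% and 58.0%.

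Other copies lie far apart. AT2G05185 on chromosome 2 and AT5G22608 on chromosome 5, of unknown function, are 99.8% identical over 1424 bases and had 5.14, 4.62 and 6.16 and 4.58, 4.84 and 6.96 RPKM in Col. Their shares were alike as well, at 45.6% and 41.6% in Col/C24 and 41.1% and 40.7% in C24/Col. AT5G42730, a pseudogene of FKF1, the blue light receptor that times flowering, is 99.5% identical over 1170 bases to the noncoding RNA gene AT5G23410 on the same chromosome. The exon stretch in which they differ most is shown (chr5:17133858-17133917, plus strand, and chr5:7885953-7886012, minus strand), with differing bases in capitals in the second line.
AT5G42730: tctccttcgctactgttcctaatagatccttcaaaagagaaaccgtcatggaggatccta
AT5G23410: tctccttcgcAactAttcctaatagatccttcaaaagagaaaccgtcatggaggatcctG
The pseudogene had 4.49, 4.41 and 4.98 RPKM in Col and 0 in the 3 C24 libraries, with 53.2% and 64.0% of Col in the hybrids. The RNA gene had 6.34, 7.39 and 7.45 RPKM in Col, 0.06, 0 and 0 in C24, and shares of 49.0% and 45.3%. AT5G50565 and AT5G50665, of unknown function on chromosome 5, do not differ over 2066 bases. They had 12.52, 13.34 and 10.5 and 14.13, 13.32 and 11.89 RPKM in Col, were listed at 0 in the 3 C24 libraries, and stood at 43.9% and 41.4% of Col in Col/C24 and at 52.3% and 49.7% in C24/Col. Among members that overlap each other, AT3G47675 (43.8% and 49.1%) and AT3G47680 (46.6% and 50%) share 2180 bp on the same strand. AT2G04378 and AT2G04380 overlap on opposite strands and stood at 44.3% and 47.7% in Col/C24 and at 51.8% and 60.2% in C24/Col. AT2G24755, an antisense RNA, and the pseudogene AT2G24760 opposite it stood at 51.1% and 52.7% in Col/C24.

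By type, 58 members are protein-coding (59.2%), 23 are pseudogenes (23.5%) and 16 are noncoding RNA genes (16.3%), as annotated in TAIR10.1. Among all 15709 matched genes with a Col mean of at least 2 RPKM these types made up 98.3%, 0.477% and 1.09%. The difference is a description, since the members were chosen by level and not sampled. In the same order of types, the median shares were 46.2%, 48.3% and 47.5% in Col/C24 and 50.04%, 51.9% and 46.2% in C24/Col. The medians lay closer together in Col/C24 than in C24/Col, where the noncoding RNA genes had the lowest. Differences between types were not tested. Protein-coding members held the highest values, and among the noncoding RNAs AT1G58590 (70.1% in Col/C24) and AT2G22482 (29.7% in C24/Col), both named after their values were seen, lay apart.

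**Figure D4:**
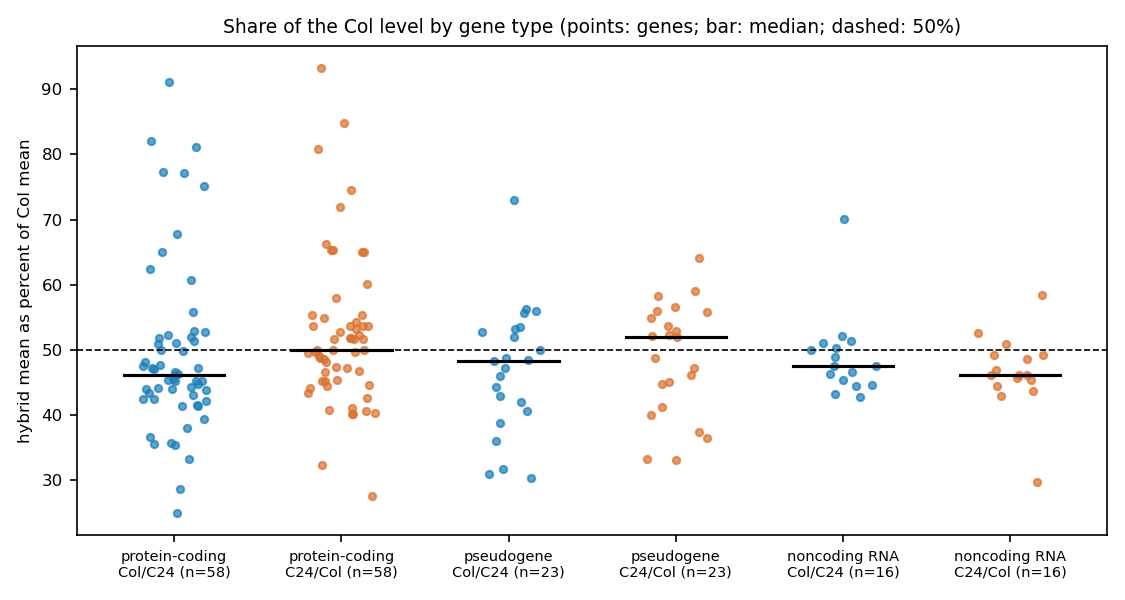
Share of the Col mean in each hybrid (y axis, percent) for 58 protein-coding genes, 23 pseudogenes and 16 noncoding RNA genes, 1 point per gene with horizontal jitter, a black bar at the median and a dashed line at 50%. The medians lie between 46.2% and 51.9% in every type and both hybrids, and the points above 75% are protein-coding.

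The strongest noncoding member, AT5G24735, had 33.4, 40.3 and 43.0 RPKM in Col, 0, 0.08 and 0.16 in C24, 15.8, 20.2 and 17.0 in Col/C24 and 15.4, 19.8 and 18.6 in C24/Col. Both hybrids lay apart from the parents and overlapped each other, at 45.5% and 46.2% of Col. AT2G15292, also noncoding, followed with 25.02, 27.9 and 30.2 RPKM in Col and 50.4% and 46.1% in the hybrids. The strongest pseudogenes were AT4G16870 (36.1, 30.6 and 38.6 RPKM in Col, 48.5% and 45.2% in the hybrids) and AT2G11240 (31.7, 26.4 and 29.98 RPKM, 55.7% and 59.1%). AT4G01593 is an antisense RNA with 9.6, 11.46 and 11.69 RPKM in Col. It lies opposite AT4G01595, which had 1.6, 1.83 and 2.33 RPKM in Col and 0 in C24 and fell just short of the Col threshold. Both genes of that locus were thus listed at 0 in C24, apart from 0.04 RPKM for AT4G01593 in replicate 3. Since the strand setting of the counting is not given, the values do not speak for each strand separately.

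At the edges of the rule, the members nearest the Col threshold from above were OFP12, ZIP7 and the pseudogene AT2G12490, with Col means of 2.02, 2.1 and 2.13 RPKM. Just below it lay AT4G28900, AT5G35935 and AT4G01595, with 1.99, 1.93 and 1.92. Nearest the C24 threshold from inside were OFP12, MIOX1 and AT1G58235, each with a C24 mean of 0.0933 RPKM. Outside it were bHLH39 (AT3G56980, a regulator of iron uptake) with 0.107, AT1G25175 with 0.11 and AT4G06534 with 0.113. The values on both sides run on without a step.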

How the data were processed

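The authors deposited 1 table per library with a gene identifier and a value, read here as RPKM from the spacing of low values. Per the submitters' processing notes, TopHat and TAIR10 were used. The sources used here do not give the counting tool or its strand setting. Identifiers on more than 1 line (567, on 1141 of 34133 lines) were left out.

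Values were used as deposited. The 17927 genes that reached 1 RPKM in 3 or more libraries were fitted on log2(RPKM + 1) with limma 3.58.1 in R 4.3.3, with a mean-variance trend and Benjamini-Hochberg adjustment over all of them (threshold 0.05), which understates changes of low genes. Counts had been considered, but the files hold none. All 12 libraries entered the reciprocal fit. Each mid-parent profile averaged 1 Col and 1 C24 library of the same number, fitted with the 6 hybrid libraries. Numbers paired the samples by the data: deviations from group means correlated at 0.54 to 0.83 over 18 same-number pairs and at -0.65 to 0.19 over 36 other pairs. Depth came from value spacing, with 61.0% to 75.7% of low values whole within 0.15 of a read, so reads were not recovered. The fit was tested on simulated data. Annotation, coordinates and sequence are RefSeq TAIR10.1 (97 members matched), searched with blastn 2.17.0 and mafft 7.526.

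The members and lists were chosen with earlier results of these data known. Genes named were the 12 highest Col means, the 6 highest and 6 lowest shares at Col means of at least 4 RPKM, members past a test's threshold, members with at most 1 gene between them and another member, the 3 nearest each threshold on both sides, lipid A genes and members with a symbol; other genes are named as their copies or overlapping partners, or after their values were seen.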

Additional observations from a re-analysis of the deposited data

Results flagged for a closer look

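Lines of identifiers that occur more than once were outside the rule and entered no comparison, yet 4 of them had a Col mean of at least 2 RPKM and a C24 mean below 0.1. They belong to AT2G13975 (2 lines), AT2G26215 and AT3G43955. In Col they had 9.74, 11.79 and 10.66 RPKM and 4.33, 4.15 and 5.58 for AT2G13975, 7.35, 10.8 and 7.55 for AT2G26215 and 5.89, 5.62 and 5.9 for AT3G43955. All C24 values were 0 except 1 of 0.07. The hybrids stood at 39.3% to 50.1% of the Col level in Col/C24 and at 36.3% to 49.7% in C24/Col, within the range of the 98 genes.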

How the results depend on the processing

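The number of genes followed the thresholds, with 150 at a Col mean of at least 1, 61 at 5 and 43 where all C24 libraries are at 0. The median share in Col/C24 was 50.2% on a common scale (median-of-ratios), against 46.8%, and 45.3% to 48.1% with a replicate left out; in C24/Col leaving one out gave 47.9% to 50.3%. The other choices of members or ratios moved both medians by less than 1 SD over libraries. With the replicate block, which the paired numbers allow, 8 members passed against the mid-parent in Col/C24 and 3 in C24/Col, where 0 did without it. The 8 include the near-identical copies GER2 and AT5G39160, which count as 1 observation. On a common scale with the block 3 and 4 passed. With the block and 1 replicate left out, 0 to 3 and 0 to 2 passed. Without the block no alternative called a member in the 3 hybrid comparisons, and with it none in the reciprocal one (smallest adjusted p among members 0.358 in limma, 11 at an unadjusted p under 0.05). Over all genes the calls against the mid-parent were 6 without and 519 with the block for Col/C24, and 9 and 282 for C24/Col. With the block and the common scale they were 127 and 573, adjusted for ribosomal RNA 1 and 1, and with the common scale alone 9 and 15. With 1 replicate left out and no block they were 1 or 2. With 1 replicate left out under the block they were 21 to 460 for Col/C24 and 13 to 105 for C24/Col. Of 322 recomputed shares of 23 named members, 302 moved by less than 1 SD over libraries. Those with a hybrid library left out could not move by more, since the SD came from the same 3 libraries. Nothing is read from that part of the count. The cause of these changes was not tested. Depth limits genes near 2 RPKM most. Joining the block with the common scale, leaving out replicates under the block, and the subset without copies or overlaps were chosen after the data had been seen.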
